A study of Mus musculus with 4 samples.

Results

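The regions described here are 898 stretches of open chromatin in mouse introns that carried a strong ATAC-seq peak in both libraries of activin-treated LβT2 cells and in neither library of vehicle-treated cells. A peak was called strong where the −log10 of its deposited q-value was 5 or more. Strong peaks of the 4 libraries were merged where they overlapped by at least 1 bp, which gave 21240 regions, of which 5597 were intronic by the annotation of their strongest peak. The 898 regions were thus 16.0% of the strong intronic regions, and they lay in 792 host genes, the host being the gene whose intron the authors' annotation names. Because the regions were chosen by the −log10 q of all 4 libraries, the difference between activin and vehicle in them is given as a description, without a test.

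The cells were LβT2, an established line from a mouse pituitary tumour with properties of the gonadotrope, the cell that makes LH and FSH. The cells, labelled LβT2b in the protocols, were held in serum-free medium overnight and then received vehicle or activin A at 1 nM for 6 h, with 2 libraries for each treatment. The series is titled for the transcription of Fshb, the gene of the FSH beta subunit, and its enhancers. The labels do not say whether the libraries of a treatment came from separate cultures, so that any p-value below measures the spread between these libraries only, which may be technical.

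Activin is a dimeric ligand of the TGF-beta family. It binds type II and type I receptor kinases at the cell surface, and these phosphorylate SMAD2 and SMAD3, which enter the nucleus with SMAD4 and act there with partner factors; in gonadotropes it is known for raising Fshb transcription. Introns hold many of the distal enhancers of mammalian genomes, and the gene in whose intron an enhancer lies is not always the gene it acts on.

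The 2 activin libraries held more strong peaks (19819 and 15807) than the 2 vehicle libraries (12377 and 12760), although their numbers of high-quality reads, 224226184 and 177952540 against 172146474 and 221141898, overlapped. Enrichment of reads at start sites was 3.12 and 3.04 in the activin libraries against 2.72 and 2.48 in the others, and these differences were in the same direction as the one that defined the regions. Of 9 gonadotrope markers, Lhb, Cga, Gnrhr, Nr5a1, Egr1 and Gata2 had a promoter peak within 1 kb of the start in all 4 libraries, Foxl2 and Pitx1 in 3, and Fshb itself in none. These peaks were counted at any strength, and Pitx1 reached at most 3.56 in −log10 q while Nr5a1 was strong only in activin library 1. Among 12 markers of other pituitary cells, Gh and Pomc had a promoter peak in 2 libraries and Tbx19, S100b and Aldh1a2 in 1. None of these was strong, with a −log10 q of at most 3.20. Prl, Ghrhr, Pou1f1, Pax7, Tshb, Trhr and Sox2 had no promoter peak in any library.

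Sequence could be read where an intronic region overlapped a start window of RefSeq, which runs from 250 bases before to 50 bases after an annotated start. Such an overlap was found for 73 of the 898 regions (8.13%), and for 60 of them the start belonged to the host gene, so that the authors' annotation placed in an intron what RefSeq gives as a start of the same gene. The windows below, 300 bases each on GRCm38.p6 and written 5′ to 3′ on the gene's strand, are those of the 2 strongest such regions, at Frrs1 and Plch1, and of 5 regions whose window holds an AP-1 or a CRE match. Capitals mark matches, on either strand, to AP-1 (TGANTCA), CRE (TGACGTCA), the SMAD GC box (GGCGCC) and the SMAD short site (CAGACA). None of these letters occurs in the windows of Frrs1 and Plch1. A window can reach past its region, and matches were counted over whole windows. At Idnk the overlap is 180 of the 300 bases, and the short site marked there lies outside the region.
Frrs1, chr3:116861430-116861729, plus strand: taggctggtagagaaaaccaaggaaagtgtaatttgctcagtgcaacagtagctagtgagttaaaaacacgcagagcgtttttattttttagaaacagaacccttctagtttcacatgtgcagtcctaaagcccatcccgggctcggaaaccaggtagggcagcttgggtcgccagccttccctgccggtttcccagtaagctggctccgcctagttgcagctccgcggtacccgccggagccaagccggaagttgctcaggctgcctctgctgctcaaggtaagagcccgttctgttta
Plch1, chr3:63899413-63899712, minus strand: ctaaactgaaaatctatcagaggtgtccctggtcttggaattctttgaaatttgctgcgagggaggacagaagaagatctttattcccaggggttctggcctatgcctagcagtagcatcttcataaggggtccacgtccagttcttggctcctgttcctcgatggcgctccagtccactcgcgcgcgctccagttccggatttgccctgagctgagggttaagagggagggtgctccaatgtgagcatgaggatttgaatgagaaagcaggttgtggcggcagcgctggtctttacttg
Arhgap18, chr10:26772262-26772561, plus strand: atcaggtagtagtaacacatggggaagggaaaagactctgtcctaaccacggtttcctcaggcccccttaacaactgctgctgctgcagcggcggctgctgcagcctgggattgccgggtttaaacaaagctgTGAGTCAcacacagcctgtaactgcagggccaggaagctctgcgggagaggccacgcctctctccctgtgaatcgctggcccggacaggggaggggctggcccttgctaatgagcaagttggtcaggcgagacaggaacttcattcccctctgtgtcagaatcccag
Cdc42, chr4:137357710-137358009, minus strand: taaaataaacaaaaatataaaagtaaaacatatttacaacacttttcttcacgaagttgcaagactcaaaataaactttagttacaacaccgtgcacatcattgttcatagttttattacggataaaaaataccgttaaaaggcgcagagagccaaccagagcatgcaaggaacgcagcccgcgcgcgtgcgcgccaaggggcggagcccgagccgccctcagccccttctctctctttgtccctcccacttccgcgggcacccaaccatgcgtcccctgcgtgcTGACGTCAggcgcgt
Idnk, chr13:58157399-58157698, plus strand: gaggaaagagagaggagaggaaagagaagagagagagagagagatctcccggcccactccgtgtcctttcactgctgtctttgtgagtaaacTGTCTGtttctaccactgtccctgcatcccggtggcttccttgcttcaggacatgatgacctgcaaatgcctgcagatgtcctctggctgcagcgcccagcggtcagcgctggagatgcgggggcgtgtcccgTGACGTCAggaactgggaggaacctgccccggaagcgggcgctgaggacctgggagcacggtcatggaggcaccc
Tra2a, chr6:49264003-49264302, minus strand: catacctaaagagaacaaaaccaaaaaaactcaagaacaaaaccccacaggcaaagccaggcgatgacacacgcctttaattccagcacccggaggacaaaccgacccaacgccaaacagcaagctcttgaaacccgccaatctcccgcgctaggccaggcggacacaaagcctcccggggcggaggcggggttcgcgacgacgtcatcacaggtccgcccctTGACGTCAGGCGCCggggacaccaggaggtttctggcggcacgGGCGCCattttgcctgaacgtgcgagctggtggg
Gpr6, chr10:41072241-41072540, minus strand: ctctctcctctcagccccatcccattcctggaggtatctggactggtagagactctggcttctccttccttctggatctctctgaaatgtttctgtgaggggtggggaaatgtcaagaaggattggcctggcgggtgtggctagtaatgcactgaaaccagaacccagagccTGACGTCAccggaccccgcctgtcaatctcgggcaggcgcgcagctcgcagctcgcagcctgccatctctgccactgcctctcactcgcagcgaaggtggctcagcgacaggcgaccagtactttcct

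Arhgap18, a GTPase-activating protein, has TGAGTCA in its window. The windows of Cdc42, a small GTPase of cell polarity, of Idnk, a gluconokinase, of Tra2a, a splicing factor, and of Gpr6, an orphan receptor, hold TGACGTCA, which in Tra2a runs on into a GC box. Of the 86 windows that overlapped an intronic region strong only with activin, 8 (9.30%) held the CRE letters, against 1.79% of all 32851 RefSeq start windows, 3.43% of the 8690 windows that overlapped a region strong in all 4 libraries, and 2.97% of the 607 that overlapped an intronic region of that kind. Both overlapping windows of 3830406C13Rik are among the 8. AP-1 letters stood in 8.14% of the 86 windows, in 7.81% of all windows, and in 3.39% and 3.62% of the windows at regions and at intronic regions strong in all 4. SMAD GC boxes stood in 16.3% of the 86, above the 11.9% of all windows but below the 24.99% and 23.9% at regions strong in all 4. CAGACA stood in 26.7% of the 86, 21.0% of all, and 13.5% and 13.7% of the last 2 sets. The other motifs searched stood in 0 to 11 of the 86 windows. The SMAD palindrome (GTCTAGAC) stood in 0 of the 86 windows and in 0.213% of all. At regions and at intronic regions strong in all 4 it stood in 0.219% and 0.329%. The SF-1 element (CAAGGTCA) stood in 1 (1.16%) and in 1.56%, with 0.909% and 0.988% in those 2 sets. Forkhead letters (GTAAACA) stood in 4 of the 86 (4.65%) and in 3.65% of all windows, with 1.98% and 1.15% in those 2 sets. PITX letters (TAATCC) stood in 3 (3.49%) and in 7.06%, with 4.41% and 4.78%. The LIM homeobox core (TAATTA) stood in 2 (2.33%) and in 5.29%, with 1.59% and 2.31% in the same 2 sets. GATA letters (AGATAA) stood in 7 (8.14%) and in 11.2%, with 4.53% and 4.45%. An E box (CAGCTG) stood in 11 (12.8%) and in 16.3%, with 13.8% and 15.0% in the same 2 sets. ETS letters (CCGGAAGT) stood in 5 (5.81%) and in 3.89%, with 8.80% and 7.58%. Each of these shares rests on at most 23 windows, a match is a description of the letters, and sequence of the regions away from a start was not analysed here.

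Nearly all of the 898 regions also had a called peak in vehicle cells, only a weaker one. A vehicle peak of some strength was called in both vehicle libraries for 825 regions (91.9%), in 1 library for 58 and in neither for 15. The median −log10 q over the regions with a peak was 3.43 in vehicle library 1 and 3.29 in vehicle library 2, and 7.98 and 6.27 in activin libraries 1 and 2. For 388 regions (43.2%) the stronger vehicle peak reached 4 or more, and for 424 (47.2%) the weaker activin peak was under 6, so that many lay close to the threshold on both sides.

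**Figure D1:**
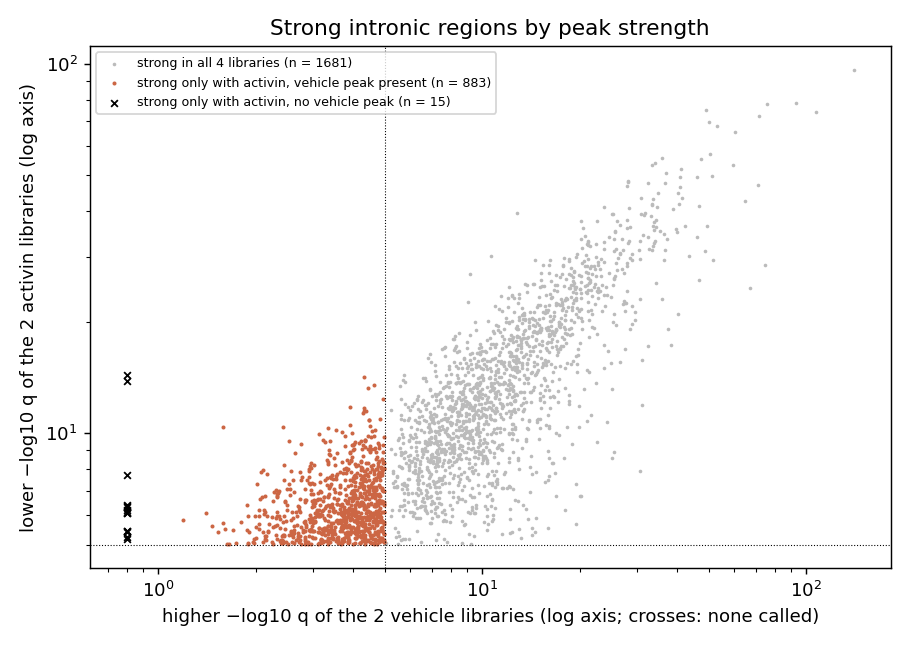
Strong intronic regions by the higher −log10 q of the 2 vehicle libraries (x, log axis) and the lower −log10 q of the 2 activin libraries (y, log axis). Orange points are regions strong only with activin, crosses at the left are the 15 of them with no vehicle peak, grey points are the 1681 regions strong in all 4 libraries, and dotted lines mark the threshold of 5. The orange points run into the grey ones without a gap.

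At the edge of the rule, the last regions inside were at Arhgef10l, a guanine nucleotide exchange factor, and Palm2, a paralemmin, each with a weaker activin peak of 5.00. The first outside were at Dscaml1, a cell adhesion molecule, and Gng4, a G protein gamma subunit, both with weaker activin peaks that also round to 5.00 and with vehicle peaks of up to 4.54 and 4.55. On the vehicle side, the region at Gm37336 was kept with 4.9984 in vehicle library 1. A region at Adcy5, an adenylyl cyclase, was left out with 5.00304 in that library. The regions strong in all 4 libraries stood higher throughout, with medians of 9.67 and 9.56 under vehicle against 17.1 and 12.8 under activin.

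The 10 regions with the highest values in their weaker activin library stood at Abcb10, Itsn1, Plekhb2, Hacd1, Nav2, Nupr1, Polr3g, Btbd10, Pcbp3 and 1700042O10Rik. In intron 1 of Itsn1, a scaffold protein of endocytosis, the region chr16:91885178-91885926 had −log10 q values of 4.06 and 4.32 under vehicle against 16.2 and 14.2 under activin. At Hacd1, a dehydratase of fatty acid elongation (chr2:14048497-14049324), they were 3.92 and 4.64 against 19.4 and 13.5. At Polr3g, a subunit of RNA polymerase III (chr13:81690424-81691032), they were 3.90 and 1.92 against 16.5 and 11.8. That the treatments do not overlap on this scale is fixed by the rule.

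The fold enrichment of these peaks over the caller's background moved less than the q-values. It was 2.34 and 2.26 under vehicle against 3.32 and 3.56 under activin at Itsn1, 2.76 and 2.74 against 4.67 and 4.22 at Hacd1, and 3.31 and 2.53 against 5.46 and 5.18 at Polr3g. At Nav2, a microtubule-associated neuron navigator, it was 2.82 and 2.60 against 3.84 and 4.17, and at Nupr1, a stress-induced nuclear protein, 2.56 and 2.46 against 3.06 and 3.45. Activin and vehicle folds did not overlap at any of these 5. The folds of Btbd10, Pcbp3, an RNA-binding protein, and the antisense RNA gene 1700042O10Rik were likewise apart, with the lower activin fold 1.48, 1.28 and 1.25 times the higher vehicle fold.

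**Figure D2:**
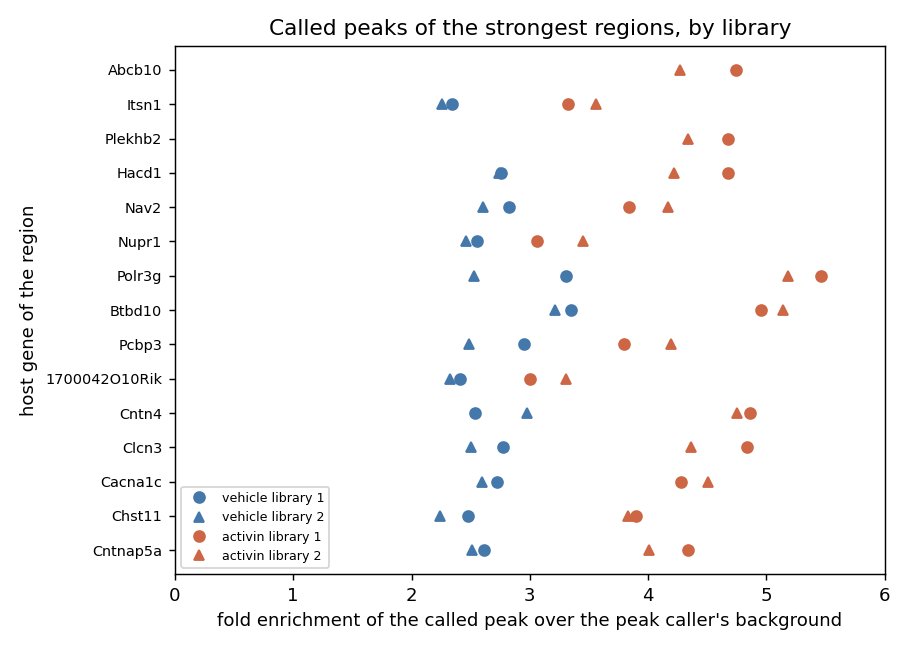
Fold enrichment of the called peak (x) in each library for the 10 regions with the highest weaker activin −log10 q, from Abcb10 to 1700042O10Rik, and for the 5 further regions, from Cntn4 to Cntnap5a, that complete the 6 with the largest fold ratio (Polr3g belongs to both). Blue points are vehicle, orange points are activin, and Abcb10 and Plekhb2 have no blue point because no vehicle peak was called.

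By the ratio of the lower activin fold to the higher vehicle fold, the 6 leading regions were at Cntn4, Clcn3, Cacna1c, Polr3g, Chst11 and Cntnap5a, with ratios of 1.60, 1.57, 1.57, 1.57, 1.55 and 1.54. Over the 795 regions with exactly 1 peak in each library the median ratio was 1.16. At Cacna1c, the pore subunit of an L-type calcium channel (chr6:118949619-118950276), the fold was 2.72 and 2.59 under vehicle against 4.28 and 4.51 under activin, and the read density, in high-quality reads per kb of peak per 1000000 of the library, was 1.17 and 1.27 against 2.16 and 2.02. Fold and read density gave the same order there, with no overlap between treatments. The 6 regions were picked by their folds and density comes from the same libraries, so the shared order is no further support. On this density scale the median of all shared regions was also higher with activin, by 0.27 in log2. At Cntnap5a, a contactin-associated protein, densities were 0.98 and 1.03 against 2.05 and 1.70, and at Clcn3, a chloride and proton exchanger, 1.01 and 1.00 against 1.75 and 1.50. Cntn4, a contactin, had 1.10 and 1.21 against 1.61 and 1.63, and Chst11, a chondroitin sulfotransferase, 1.83 and 1.27 against 2.16 and 2.45.

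The 15 regions with no vehicle peak were between 148 and 685 bp long, against a median of 764 bp over the 898. The 8 with the highest weaker activin q were at Abcb10, Plekhb2, Kynu, Spi1, Bmpr1b, A430010J10Rik, Gm15794 and Kif5c. In intron 8 of Abcb10, a mitochondrial ABC transporter, the region chr8:123961294-123961978 reached 21.6 and 14.4 in −log10 q with 75 and 111 high-quality reads in its activin peaks. These reads were few for such q-values, since the lower quartiles over the autosomal regions of the 898 were 239 and 159. At Plekhb2, a protein of recycling endosomes, a region of 186 bp (chr1:34867297-34867482) reached 19.4 and 13.8 with 238 and 192 reads. These 2 stood apart from the other 13, whose weaker activin value was at most 7.72.

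The value of 7.72 belonged to Kynu, an enzyme of tryptophan breakdown, where a region of 158 bp had −log10 q values of 7.72 and 8.06. Bmpr1b, a type I receptor for BMP ligands, held a longer region of 610 bp in its intron 1 (chr3:141917163-141917772) with 9.04 and 6.36 and with 173 and 157 reads. Spi1, known as the transcription factor PU.1 of myeloid cells, had 6.40 and 6.89, and Kif5c, a kinesin heavy chain, 6.56 and 6.12. Gm15794 had 10.9 and 6.20, and A430010J10Rik 6.49 and 6.30. No vehicle reads are given for these 8, since the quality reports count reads only within called peaks.

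Fold enrichment separated the treatments in the members more often than in other regions, which the rule itself favours. Over all autosomal regions with 1 peak of each library, at any strength, both activin folds were above both vehicle folds in 50.6%. The share was 96.6% (743 of 769) in the regions strong only with activin and 61.2% (951 of 1555) in the intronic regions strong in all 4. The ratio of the mean activin fold to the mean vehicle fold had a median of 1.26 in the former, 1.13 in the latter and 1.10 over all regions, so that a general shift of the folds was present in every set.

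Read density, which the rule did not use directly, comes from the same libraries and is given as a description. For 376 of the 898 regions all 4 libraries had a single peak, with a common part of at least 50% of the union. Their densities were set side by side with 13871 such shared regions of the whole series, although peak lengths could still differ between libraries. On the log2 scale of (reads + 1) per kb, centred on each library's median over the shared regions, the activin minus vehicle difference had a median of 0.014 in the 376 and of −0.0049 over all shared regions. Both activin densities lay above both vehicle densities in 20.9% of all shared regions and in 82 (21.8%) of the 376, and they lay below in 20.5% and in 65 (17.3%). Beside all 3052 introns among the shared regions the distance was wider, since these had a median of −0.057, with 14.7% above and 26.8% below. Those introns were taken at any peak strength, while the rule required strong activin peaks in the 376. The 1202 intronic ones strong in all 4 had a median of −0.00076, with 20.5% above and 20.8% below. With densities scaled instead to all high-quality reads of the library, the median was 0.29 in the 376 and 0.27 over all shared regions. Both activin values were then above in 62.2% of all shared regions and in 266 (70.7%) of the 376. All introns had 0.22 and 50.9% on that scale, and the intronic ones strong in all 4 had 0.27 and 62.4%. The scaling thus moved the median of all regions by 0.27, and that of the 376 with it. Without the rule on a common part, 779 autosomal regions of the 898 had exactly 1 peak in each library. Both activin values were above in 408 of these (52.4%) and below in 26 (3.34%). For intronic regions strong in all 4 they were above in 819 of 1555 (52.7%) and below in 102 (6.56%).

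Single regions varied. At Itsn1 the centred log2 densities were 0.25 and 0.32 under vehicle against 0.33 and 0.52 under activin, which did not overlap. At Cacna1c they were −1.19 and −0.90 against −0.53 and −0.55, with a difference of 0.50. At Frrs1, a ferric reductase, they were −0.89 and −1.13 against −0.85 and −0.96, and the treatments overlapped. At Plch1, a phospholipase C, they were −1.10 and −1.04 against −1.22 and −0.81, and at Cdc42 −0.31 and −0.52 against −0.40 and −0.63, with overlap in both. Peak length enters these values. The Frrs1 peaks held 120 and 130 reads over 484 and 544 bp under vehicle. Under activin they held 280 and 247 reads over 719 and 911 bp.

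**Figure D3:**
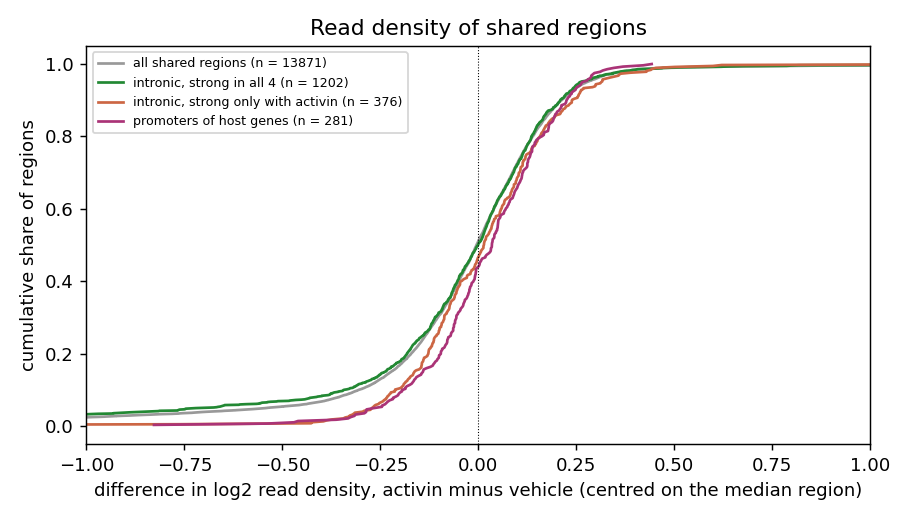
Cumulative share of shared regions (y) by the activin minus vehicle difference in log2 read density, centred on the median region (x), for all 13871 shared regions (grey), the 1202 intronic ones strong in all 4 libraries (green), the 376 intronic ones strong only with activin (orange) and the 281 promoters of the host genes (purple). The 4 curves cross 0 close together, with medians between −0.0049 and 0.035.

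The number strong only with activin was far above the number strong only with vehicle at the threshold of 5, where the activin lists were the longer. With the threshold of 5, 898 intronic regions were strong only with activin and 22, or 0.393% of the strong intronic regions, only with vehicle. Leaving out 1 library moved both numbers. The activin number was 2371 without activin library 2, and the vehicle number was 314 without vehicle library 1, 67 without vehicle library 2, 91 without activin library 1 and 36 without activin library 2. When each library was limited to its 12377 strongest peaks, the length of the shortest list, this limit fell at −log10 q of 5.00 and 5.17 in the vehicle lists and of 9.40 and 6.93 in the activin lists. The numbers were then 150 for activin and 144 for vehicle. Lists of equal length draw these 2 numbers together by construction, so this comparison bears on which regions are kept and not on whether accessibility differed. Of the 898 regions, 139 (15.5%) in 136 host genes met the rule under both definitions. They included all of the 10 strongest regions named above and, of the 15 without a vehicle peak, only Abcb10 and Plekhb2. No vehicle peak of the 898 regions reached these limits, so keeping a region rested mainly on its activin values. The 10 had been picked by those values, and their being kept is no further support.

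At the threshold of 5, regions of other annotations were also more often strong only with activin than only with vehicle. Regions strong only with activin were 12.0% of all strong regions, 15.3% of the intergenic ones and 7.13% of the promoter ones, against 16.0% of the intronic ones. Those strong only with vehicle were 0.381% of all strong regions, 0.964% of the intergenic ones and 0.0122% of the promoter ones, against 0.393% of the intronic ones.

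The regions strong only with activin lay farther from the nearest annotated start, of the host or of another gene, than the intronic regions strong in all 4. The median distance was 15.5 kb against 10.6 kb, and 64 (7.13%) against 424 (25.2%) lay within 1 kb. Intron 1 held 405 (45.1%) of the former and 999 (59.4%) of the latter. The host was also the gene of the nearest annotated start for 478 (53.2%) and for 1018 (60.6%), so that for many regions the host and the gene of the nearest start differ. A RefSeq start window was overlapped by 30.2% of the regions strong in all 4, against the 8.13% given above. These differences between the 2 sets were not tested.

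**Figure D4:**
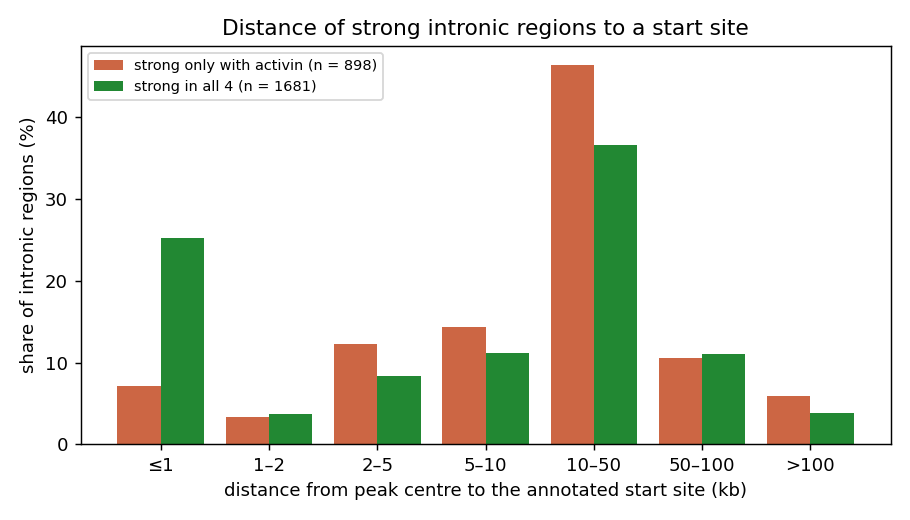
Share of intronic regions (y, %) by the distance from the peak centre to the annotated start (x, kb), for the 898 regions strong only with activin (orange) and the 1681 strong in all 4 libraries (green). Within 1 kb the shares are 7.13% and 25.2%.

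The regions were spread over many genes. Of the 792 hosts, 704 held 1 region, 73 held 2 and 15 held 3 or more. Protein-coding genes were the hosts of 820 regions (91.3%) and lincRNA genes of 40. Among the 753 hosts matched to RefSeq the median gene length was 84.8 kb (quartiles 36.0 and 203 kb), against 62.7 kb for the hosts of regions strong in all 4. There were 184 hosts (23.2%) that held regions of both kinds.

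Tenm4, a teneurin transmembrane protein of cell contacts, held 6 regions over 509 kb of chromosome 7. The first, chr7:96288445-96288996, had −log10 q values of 3.82 and 1.91 under vehicle against 12.5 and 8.48 under activin. The region with the highest weaker activin value, chr7:96448328-96449365, had 3.70 and 4.23 against 9.91 and 9.52. The last, chr7:96795642-96797715, had 4.64 and 4.90 against 7.13 and 8.51, and so its vehicle peaks were just under the threshold. Its strongest peak was centred 389 bp from an annotated start of Tenm4. A promoter region of Tenm4 was itself strong only with activin. In the 2 Tenm4 regions among the shared regions, the centred density was higher in both activin libraries at chr7:96440108, by 0.21, and overlapped between treatments in the other, with a difference of −0.12.

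**Figure D5:**
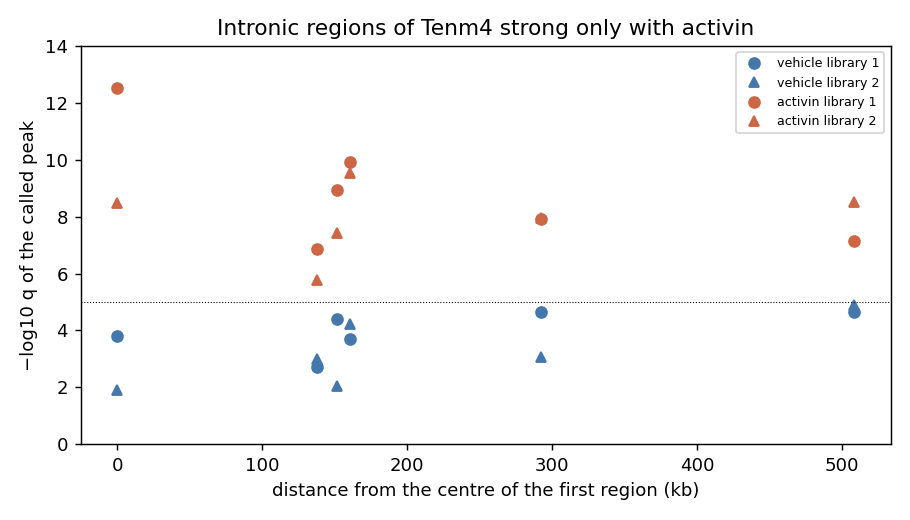
The −log10 q of the called peak (y) in each library at the 6 Tenm4 regions, placed by their distance in kb from the first (x). Blue is vehicle, orange is activin, circles are library 1 and triangles library 2, and every orange point lies above the dotted threshold of 5 with every blue point under it, as the rule requires.

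The other hosts with at least 3 regions each held 3, and most of them are named here. Kalrn, a guanine nucleotide exchange factor, held its regions within 118 kb, and Slit3, a guidance ligand, within 446 kb. Camta1, a calmodulin-binding transcription factor, and Zbtb20, a zinc finger repressor, held theirs within 378 and 365 kb. Arhgef10l, Clasp1, a microtubule plus-end protein, Dpp10, a potassium channel auxiliary subunit, Kdm4b, a histone demethylase, Bckdhb, a subunit of branched-chain ketoacid dehydrogenase, Fbxl17, an F-box protein, Tbc1d9 and 2010111I01Rik had spans between 11.9 and 288 kb. The 3 regions given to Gm20388 span 2802 kb, a locus that covers many other genes, so that their host is uncertain.

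Counts over lists of genes were read against all genes that host any strong intronic region, of which 21.6% (792 of 3673) hosted a region strong only with activin. Among 16 receptors of activin and the TGF-beta family, 6 hosted a strong intronic region and 2 hosted one strong only with activin, which were Bmpr1b, described above, and Tgfbr3. Tgfbr3, or betaglycan, is the co-receptor through which inhibin opposes activin. Its region chr5:107143967-107144680 in intron 5 had −log10 q values of 3.81 and 2.50 under vehicle against 5.48 and 5.29 under activin, and chr5:107251835-107252469 in intron 2 had 2.42 and 2.29 against 5.15 and 6.37. Both were near the threshold on the activin side.

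Among 22 Smads and regulators, 9 hosted a strong intronic region and 2 one strong only with activin. In intron 5 of Smad3, a SMAD that activin receptors phosphorylate, the region chr9:63662454-63664069 had 4.34 and 2.70 under vehicle against 8.51 and 5.29 under activin. In intron 1 of Smurf1, a ubiquitin ligase for Smads and receptors, the region chr5:144944853-144946077 had 2.23 and 4.71 against 5.68 and 6.55. The 26 ligands and binding proteins gave 4 genes with a strong intronic region and none with one strong only with activin.

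Of 25 gonadotrope and pituitary transcription factors, 5 hosted a strong intronic region and 1, Foxp2, hosted regions strong only with activin. The forkhead factor Foxp2 had them in intron 1, at chr6:15189911-15190828 with 4.57 and 2.64 against 10.3 and 10.2, and at chr6:15282122-15282488, where vehicle library 1 had no peak and the other values were 4.46, 7.49 and 8.13. Of 30 nuclear receptors, 3 of 10 did so, namely Rora, Thra and Thrb. Rora, a retinoid-related orphan receptor, had 4.46 and 4.04 against 9.98 and 9.09. Thra and Thrb encode the thyroid hormone receptors, and Thra had 1.79 and 3.27 against 5.47 and 9.56, with a promoter region that was also strong only with activin.

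Among 46 genes of GnRH receptor signalling, 19 hosted a strong intronic region and 7 (36.8%) one strong only with activin, which were Plcb4, Prkca, Prkcb, Prkch, Map2k1, Itpr1 and Itpr2. Prkca, Prkcb and Prkch are protein kinase C genes. In intron 10 of Prkch, chr12:73742648-73743271 had 3.17 and 2.91 against 12.9 and 7.77. Prkca had 3.96 and 4.49 against 9.66 and 6.86, and Prkcb, whose promoter region was also strong only with activin, 2.99 and 4.26 against 11.1 and 6.52. In intron 44 of Itpr2, a receptor for inositol trisphosphate that releases calcium, the values were 1.71 and 2.29 against 5.61 and 6.84.

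Of 36 voltage-gated ion channel genes, 22 hosted a strong intronic region and 8 (36.4%) one strong only with activin, among them 3 calcium channel subunits. Besides Cacna1c, described above, Cacna2d1, an auxiliary calcium channel subunit, had 3.81 and 4.15 against 8.25 and 8.19 in intron 1 and 2.92 and 4.49 against 6.64 and 7.55 in intron 4. Kcnd2, a potassium channel of the A type, had no peak in vehicle library 1 and 1.41 in the other, against 6.78 and 6.07, and its promoter region was strong only with activin as well. The other hosts of this list were Cacnb2, Kcnd3, Kcnma1, Kcnq1 and Kcnip4.

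The shares of the signalling and channel lists, 36.8% and 36.4%, stood above 21.6%, and the length of the hosts, which were longer than those of regions strong in all 4, was not taken into account.

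Of 54 axon guidance and adhesion genes, 23 hosted a strong intronic region and 4 (17.4%) one strong only with activin, which were Slit3, Sema3d, Plxna1 and Ctnna2. Slit3 led with 4.02 and 1.59 against 9.24 and 7.57, and Plxna1, a semaphorin receptor, had 4.81 and 3.48 against 10.2 and 7.26. Of 39 exocytosis genes, 2 of 15 (13.3%) did, Rab3b and Rab27b, both small GTPases of secretory vesicles. The Rab3b region chr4:108878906-108879707 had 4.76 and 4.61 against 13.4 and 7.74, so that its vehicle peaks were close to the threshold.

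Among 33 Ets, Klf and related factors, 3 of 9 hosted such a region. Etv6, an Ets repressor, had 3.57 and 4.13 against 9.09 and 6.45, Erg had 4.72 and 4.24 against 7.58 and 6.34, and Tcf4 had 3.38 and 2.38 against 9.57 and 6.16. Among 26 AP-1 and related factors, 1 of 4 did, Crem, a cyclic AMP responsive modulator, with no peak in vehicle library 1, 2.998 in the other, and 5.41 and 5.20 with activin. Among 17 clock genes, 1 of 5 did, Npas2, with regions at 2.81 and 3.65 against 10.3 and 7.88 and at 3.86 and 4.25 against 9.74 and 5.88.

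The promoters of the host genes are other regions than the 898, and here the treatments could be tested. Of the 792 hosts, 252 (31.8%) had a promoter region strong in all 4 libraries, 27 (3.41%) had one strong only with activin, and 453 (57.2%) had no strong promoter region. For the hosts of intronic regions strong in all 4 the first 2 shares were 21.0% and 2.34%. A promoter region was counted only where its strongest peak was annotated as promoter, and not where a peak at a start was annotated as intron. A RefSeq start window of the host was overlapped by 27.8% of the intronic regions strong in all 4 and by 6.68% of the 898. The shares of the 2 sets of hosts are thus not like for like. Host promoters made up 281 of the 13871 shared regions. With limma over all shared regions and Benjamini-Hochberg adjustment, 0 of 281 were called at an adjusted p of 0.05, as were 0% of all shared regions. At an unadjusted p under 0.05 limma gave 24 (8.54%), of which 13 were higher and 11 lower with activin, against 9.53% of all shared regions, and it gave 15 without activin library 2. With densities scaled to all high-quality reads, where the whole table moved by 0.27, limma called 13 host promoters (4.63%), against 4.36% of all shared regions and 5.01% of all promoters among them.

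The median difference of the host promoters was 0.035 on the centred log2 scale, and that of all promoters among the shared regions was 0.030. Both activin densities were above both vehicle densities in 87 (31.0%), against 25.8% of all promoters. They were below in 52 (18.5%), against 15.1% of all promoters, so both shares were the higher in host promoters. Higher with the smallest p were Adarb1, an RNA-editing deaminase, Mrpl48, a mitochondrial ribosomal protein, and Wbscr17, a glycosyltransferase. For Adarb1 the read density of the promoter was 2.10 and 1.93 under vehicle against 3.23 and 3.28 under activin, which is a log2 difference of 0.69 on the scale of all high-quality reads and of 0.42 on the centred scale (SE 0.12, limma adjusted p = 0.405). On the centred scale Mrpl48 differed by 0.31 and Wbscr17 by 0.35, both with a limma adjusted p of 0.412. On the scale of all high-quality reads they differed by 0.58 and 0.62, and the limma adjusted p was 0.0197 for Adarb1, 0.0307 for Mrpl48 and 0.0258 for Wbscr17.

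Lower with the smallest p were Osbpl5, an oxysterol-binding protein, Lasp1, an actin-binding protein, and Zfp536, a zinc finger factor. Osbpl5 had densities of 4.52 and 4.79 under vehicle against 4.25 and 3.88 under activin, which is a log2 difference of −0.20 on the scale of all high-quality reads and of −0.47 on the centred scale (SE 0.11, limma adjusted p = 0.405). On the centred scale Lasp1 differed by −0.46 (limma adjusted p = 0.428) and Zfp536 by −0.29 (limma adjusted p = 0.435), and on the other scale by −0.19 and −0.011. None of the 6 passed the threshold on the centred scale. On that scale but without division by peak length the differences were −0.17 for Adarb1, −0.23 for Wbscr17, 0.05 for Osbpl5 and 0.28 for Zfp536, all of the opposite sign, and 0.13 for Mrpl48 and −0.02 for Lasp1. The activin peak of Adarb1 was the shorter, at 980 and 869 bp against 1416 and 1102 bp.

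For 13 of the 898 regions the quality reports counted fewer than 10 high-quality reads in at least 1 activin peak, although the peaks were called as strong. They lay at Gm28376, Ispd, Grid1, Gm16677, Entpd4, Gm27174, Gm21685, Urb1, Vapb, Magi2, Gbp8, Kcna5 and Gm14548. Those at Gm16677, Entpd4, Gm27174 and Gm21685 lie together on chromosome 14 between positions 69332102 and 69572560 and had 0 high-quality reads in all 4 libraries, with activin −log10 q values of up to 13.0. Without the 13, 885 regions are counted. In the 22 intronic regions strong only with vehicle the median read density was 0.114 and 0.281 in the vehicle libraries, against 1.90 and 1.76 in the 898.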

How the data were processed

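ATAC-seq reads of 4 libraries were aligned with Bowtie2, peaks were called with MACS2 and annotated with HOMER on GRCm38 (mm10), per the submitters' processing notes, which give no versions or settings. The authors deposited a peak list per library, with a score, a fold enrichment over background (a ratio), and the −log10 of the p-value and of the q-value for each peak. The deposited score equals the −log10 q multiplied by 10 and cut to a whole number for 417463 of 417506 peaks. The lists hold no peak with a −log10 q under 1. A deposited report of ataqv 1.3.1, per the file headers, gives high-quality autosomal reads per called peak, so that regions on X have no reads.

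Strong peaks (−log10 q of at least 5) were merged and classified as the report describes. Shared regions were merged autosomal regions of all called peaks with exactly 1 peak of each library and a common part of at least 50% of the union. Their log2((reads + 1) per kb), centred on library medians, were fitted with limma 3.58.1 in R 4.3.3 (lmFit, then eBayes with a trend and without a block). Its p-values were adjusted over all 13871 regions by Benjamini-Hochberg, with a threshold of 0.05. The reads stand in a quality report over intervals that differ between libraries, so no count model was used. The script was tested on simulated data. A difference on this scale understates that of regions with few reads.

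The regions and the gene lists were chosen with earlier results of these data known. Named are the 10 regions with the highest weaker activin q, the 8 such among those without a vehicle peak, hosts with at least 3 regions, the 6 largest fold ratios, up to 4 regions per gene list, those next to the threshold and, among host promoters, the 3 smallest p in each direction. The regions with few reads and the start windows shown were chosen after their values were seen. Symbols and start windows came from RefSeq (GRCm38.p6). Of 792 hosts, 753 matched it. A host gene and a gene list are not reported here. No genome was used, so the motif search planned in the regions was made only in start windows. Alternatives varied the threshold, list length, merging, annotation rule, pseudocount, scaling, peak length, interval overlap, read minimum and libraries used.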

Additional observations from a re-analysis of the deposited data

How the results depend on the processing

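Of the alternatives to the number of regions (898), those with −log10 q of at least 4 or 6, a 100 bp overlap, an intron annotation of every strong peak, at least 10 high-quality reads, or no RefSeq start window gave between 782 and 1025. At thresholds of 4 and 6 these included only 510 (56.8%) and 474 (52.8%) of the 898. At −log10 q of at least 10 the number was 427, of which 23 were among the 898, and with lists of equal length it was 150. Leaving out 1 library at a time gave 1103 to 2371, the lowest without activin library 1 and the highest without activin library 2. The read minimums of 10 and the start window condition were chosen after seeing the data.

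The median density difference of the regions (0.014) was 0.29 with scaling to all high-quality reads and 0.047 without division by peak length, and leaving out 1 library at a time gave −0.0068 to 0.033. It was −0.0049 with an interval overlap of 80%. No host promoter was called by limma under any alternative except scaling to all high-quality reads, with 13. Leaving out 1 library leaves a lone sample in its arm, which is assumed to vary like the other arm. With the replicate number as a block, limma called 0 host promoters, and the unadjusted p was under 0.05 for 23. Same-numbered libraries did not deviate together (correlation −0.03 over 13871 regions), so the numbers are not taken as pairs. With 2 libraries per treatment, and reads counted only within each library's own called peaks, differences in depth, background and list length cannot be told apart from treatment in the strong calls.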
